A study of Mus musculus with 17 samples.

Results

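The genes described here are those that encode Wnt ligands, their receptors and their secreted inhibitors: the Wnt genes, the Frizzled (Fzd) receptors, the coreceptors Lrp5 and Lrp6, the Sfrp genes with Frzb, and the Dickkopf (Dkk) genes. They were chosen by symbol alone, and 40 of the 25239 genes in the count tables matched: 19 Wnt ligands, 10 Frizzled receptors, 2 coreceptors, 5 Sfrp or Frzb genes and 4 Dkk genes. The symbol rule uses no measured value, but it was set with earlier results of these data known. The study sequenced bulk RNA from 2 areas of frontal cortex, orbitofrontal (OFC) and medial prefrontal (mPFC), in mice of the DAT-cre line, in which Cre recombinase is driven by the dopamine transporter gene and is carried by dopamine neurons. It classed mice as perseverers (addicted) or renouncers (non-addicted) in oDASS, a protocol in which an animal stimulates its own dopamine neurons with light. Before oDASS, tissue imprints of the OFC, small amounts of material taken from the living brain, yielded 5 libraries, 3 of renouncers and 2 of perseverers. Dissections made after oDASS yielded 6 libraries per area, 3 of each phenotype. All 17 libraries come from the same line, and no dissection comes from a mouse that did not go through oDASS. Age, sex and pooling of animals are not given in the labels used here, nor is it stated which libraries share an animal, so p-values measure the spread between these libraries, which may be partly technical.

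Wnt proteins are secreted lipid-modified ligands that act over short distances. In the canonical branch a Wnt binds a Frizzled receptor together with Lrp5 or Lrp6, which stabilises beta-catenin and lets it act on target genes with TCF and LEF factors; other branches signal through planar polarity proteins and calcium. Sfrp proteins and Frzb bind Wnts outside the cell, whereas Dkk1, Dkk2 and Dkk4 bind the Lrp coreceptors. In the forebrain the pathway is known for cortical patterning, synapse formation and the growth of brain vessels.

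The dissections held 12392731 to 20945108 counts each and the imprints 8960549 to 10662666. Haemoglobin genes took 0.0253% to 0.0787% of the counts in dissections, 29.7% in imprint renouncer replicate 1 and 85.4% to 90.7% in the other 4 imprints. After scaling, imprint renouncer replicate 1 was worth 6294146 counts and the other 4 imprints 345842 to 975757, so that 1 count in those 4 stands for 1 to 3 CPM. Of the 40 genes, 31 to 36 had a count in each dissection, 29 in imprint renouncer replicate 1 and 13 to 16 in the other imprints. The cortical neuron marker Slc17a7 was present in every library, at 478 to 846 CPM in imprints and 1222 to 1809 in dissections. In bulk samples fewer cells of a type and less RNA per cell cannot be told apart.

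Levels are given first for the 12 dissections, in scaled CPM (library counts brought to a common total after TMM scaling) divided by the gene length in kb, so that genes can be compared with one another. Among ligands Wnt7b stood highest, at 18.7 ± 4.09 CPM per kb (SD, n = 12 dissections), with a lowest value of 12.2, a median of 18.3 and a highest of 24.9. It held 37.9% of the summed level of the 19 ligands. Wnt7b, a ligand known for its part in brain vessel growth and dendrite growth, was followed by Wnt10a at 9.42 ± 2.47, Wnt9a at 5.61 ± 1.503 and Wnt7a, the close relative of Wnt7b, at 5.18 ± 1.28 CPM per kb. The ranges of Wnt7b and Wnt10a met only at their edges, since the highest Wnt10a value was 12.7, whereas those of Wnt10a, Wnt9a and Wnt7a overlapped. Wnt4 (3.45 ± 1.39 CPM per kb) and Wnt2 (3.01 ± 1.11) came next, with ranges that overlapped those of Wnt9a and Wnt7a. Wnt5b, a ligand mostly of the branches that do not use beta-catenin, stood at 1.03 ± 0.438 CPM per kb, and Wnt6, Wnt5a, Wnt1, Wnt3, Wnt9b and Wnt16 at 0.217 to 0.835. Wnt10b, Wnt2b and Wnt11 reached 0.0520 to 0.0641 CPM per kb, and Wnt8b had 1 count in 1 dissection. Wnt3a and Wnt8a had 0 counts in all 17 libraries, which allows up to 0.016 CPM over the 12 dissections when 3 counts are taken as the limit. This limit, like every interval on counts, covers counting error only.

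Receptor levels were spread more evenly than those of the ligands. Fzd9 stood at 5.85 ± 1.95 CPM per kb (SD, n = 12 dissections) and held 26.1% of the Frizzled level, Fzd3 at 5.09 ± 1.03 with 22.8%, Fzd1 at 3.48 ± 0.892 with 15.5% and Fzd2 at 2.67 ± 0.700 with 11.9%. The ranges of these neighbours overlapped. Fzd3 is known for its part in axon guidance with planar polarity proteins, and Fzd9 is a receptor best known from the hippocampus. Fzd4, the receptor that brain endothelium uses for Norrin, stood at 1.42 ± 0.437 CPM per kb, close to Fzd8, Fzd7 and Fzd6 at 1.09 to 1.34, and Fzd10 and Fzd5 were at 0.215 and 0.0631. Of the coreceptors Lrp6 held 90.9% of the summed level, at 2.20 ± 0.476 CPM per kb against 0.220 ± 0.149 for Lrp5, and the lowest Lrp6 value (1.80) was above the highest Lrp5 value (0.453).

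The inhibitors were led by Dkk3, which at 208 ± 41.6 CPM per kb (SD, n = 12 dissections; lowest 145, median 214, highest 257) exceeded every other member in every dissection. Dkk3 is the divergent member of its family and is not known to bind the Lrp coreceptors as Dkk1 does. It held 99.9% of the Dkk level: Dkk2 stood at 0.244 ± 0.186 CPM per kb, and Dkk1 and Dkk4 had 0 counts in all 12 dissections and 2 counts each in imprint renouncer replicate 1. Among the Wnt-binding inhibitors, Frzb (7.65 ± 2.52 CPM per kb) and Sfrp1 (6.38 ± 1.33) held 40.8% and 34.0% of the level, and their ranges overlapped. Sfrp2 stood at 1.09 ± 0.374 and Sfrp5 at 0.183 ± 0.117. Sfrp4 had a median of 0.639 CPM per kb but a mean of 3.46 ± 7.85, because 1 OFC dissection reached 27.8 while another dissection was at 0.0416.

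**Figure D1:**
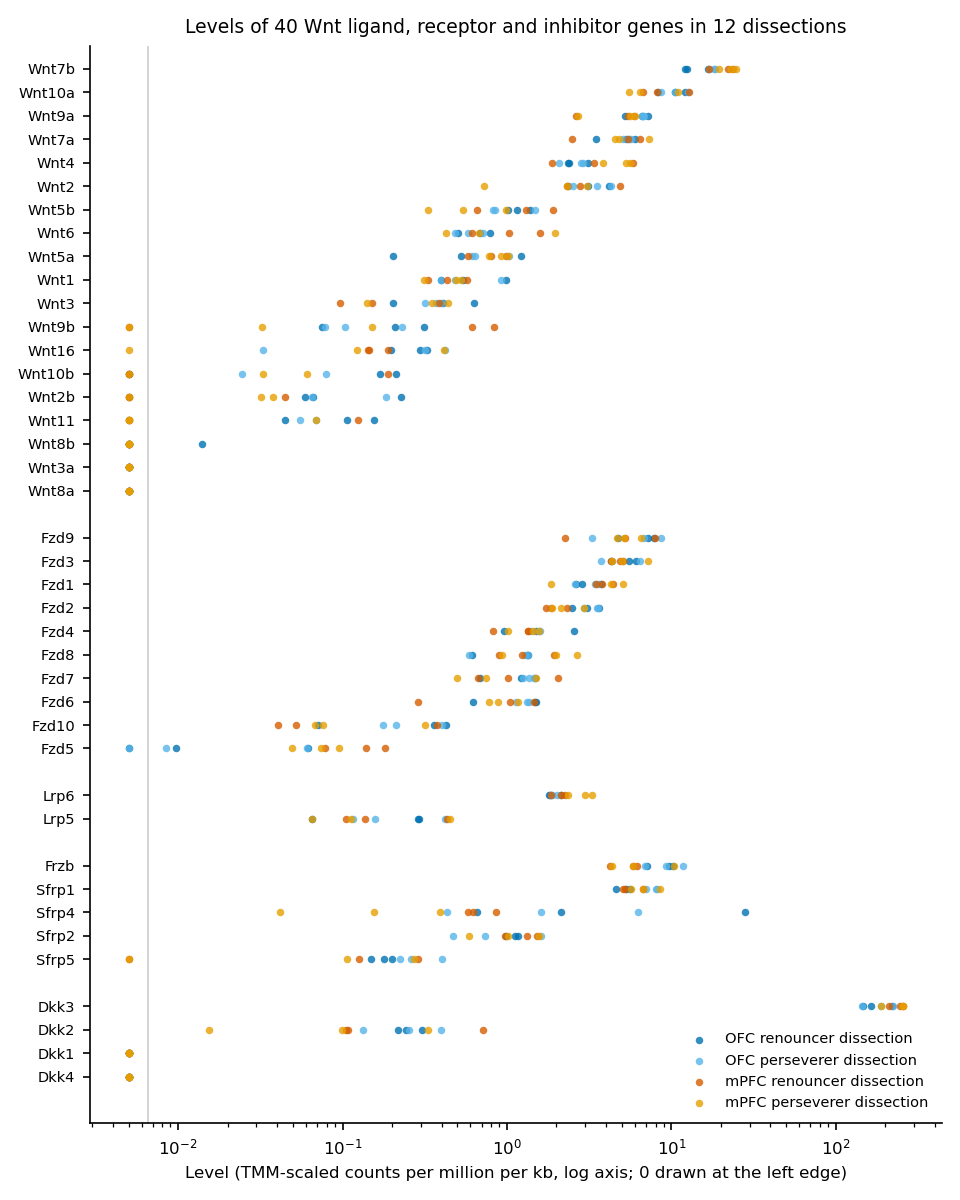
Level of each of the 40 genes in each of the 12 dissections, grouped by role, in scaled CPM per kb on a log axis, with zeros drawn at the left edge. Dkk3 lies between 145 and 257, apart from all others, Wnt7b leads the ligands at 12.2 to 24.9, and Sfrp4 spans 0.0416 to 27.8.

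All 40 genes were found in the GENCODE M21 annotation of GRCm38, the build that mm10 corresponds to. None shared 20% or more of its exon bases with another gene, and 6 shared any (Fzd5 17.8%, Sfrp2 16.1%, Wnt11 8.80%, Wnt7b 6.61%, Wnt5a 4.58% and Fzd6 3.15%), all with genes on the opposite strand, whose reads cannot be told apart in libraries that do not keep the strand. These shares describe the GENCODE gene models. The deposited gene lengths, used for levels per kb, differ from the GENCODE exon bases in some genes. They were 1758 against 4179 bases for Sfrp4 and 1666 against 4360 for Wnt16. The order of genes by level per kb depends on the deposited lengths. The ligands include 4 pairs of neighbouring genes, whose levels in dissections differed without overlap in every pair but Wnt3 and Wnt9b. Wnt10a and Wnt6, 6.19 kb apart on chromosome 1, stood at 9.42 and 0.835 CPM per kb. Wnt9a and Wnt3a, 16.2 kb apart on chromosome 11, stood at 5.61 and 0. Wnt1 and Wnt10b, 11.7 kb apart on chromosome 15, stood at 0.531 and 0.0641. Wnt3 and Wnt9b, 24.3 kb apart on chromosome 11, stood at 0.323 and 0.221. The Wnt3 and Wnt9b ranges overlapped (0.0966 to 0.629 and 0 to 0.839).

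RefSeq promoter windows of GRCm38.p6, 250 bases before to 50 bases after a transcription start, were matched by symbol for 26 of the 40 genes, with 29 windows in all. The core motif of TCF and LEF factors, CTTTGA searched on both strands, was in 5 of the 29 windows (those of Dkk1, Frzb and Fzd1, 1 of 2 of Wnt11 and 1 of 3 of Wnt5b) against 16.0% of all 32851 windows, and the letters TATAAA, also on both strands, were in 4 against 13.6%. Frzb, Fzd1 and Wnt9a are shown because all 3 were lower in imprints than in dissections while their start regions differ. The Frzb window (chr2:80447347-80447646, minus strand, 64.7% G and C) and the Fzd1 window (chr5:4758167-4758466, minus strand, 54.0%) each hold the TCF and LEF core, in capitals, here as TCAAAG on the printed strand, beginning 95 and 242 bases before the start, and that of Fzd1 also holds TATAAA, in capitals. The Wnt9a window (chr11:59306680-59306979, plus strand, 83.3%) holds neither. A match describes the letters and is not a binding site.
Frzb: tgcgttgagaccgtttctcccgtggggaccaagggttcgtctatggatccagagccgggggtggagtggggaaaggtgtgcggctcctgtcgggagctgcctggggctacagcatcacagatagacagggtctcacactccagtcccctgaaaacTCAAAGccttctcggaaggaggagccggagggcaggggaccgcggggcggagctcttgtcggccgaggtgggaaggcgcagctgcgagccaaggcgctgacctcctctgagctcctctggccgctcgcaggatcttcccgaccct
Fzd1: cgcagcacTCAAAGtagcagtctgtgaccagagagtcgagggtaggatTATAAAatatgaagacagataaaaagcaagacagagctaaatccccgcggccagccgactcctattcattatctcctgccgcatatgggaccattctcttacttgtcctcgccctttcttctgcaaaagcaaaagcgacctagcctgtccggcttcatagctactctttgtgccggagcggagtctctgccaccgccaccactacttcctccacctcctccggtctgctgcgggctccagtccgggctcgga
Wnt9a: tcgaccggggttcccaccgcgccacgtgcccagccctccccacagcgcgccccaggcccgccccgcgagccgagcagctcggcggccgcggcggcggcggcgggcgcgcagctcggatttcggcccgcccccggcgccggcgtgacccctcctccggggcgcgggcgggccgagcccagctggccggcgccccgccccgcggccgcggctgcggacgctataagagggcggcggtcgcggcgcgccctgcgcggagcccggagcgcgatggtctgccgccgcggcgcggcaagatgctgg

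Between the dissected OFC and mPFC, Sfrp4 was higher in the OFC, and no other member passed the threshold (adjusted p under 0.05, edgeR's quasi-likelihood test with phenotype as a term, 6 against 6 libraries). Of all 15025 genes tested, 264 (1.76%) passed, 134 of them higher in the OFC, and 1 of 29 members (of 40) did. At an unadjusted p under 0.05 there were 8 of 29 members, beside 14.3% of all genes. The median log2 fold change of the 29 members was 0.20, and that of all genes 0.00. In no member were the 2 regions' values separate, beside 1.9% of all genes. With libraries of the same phenotype and replicate number as a block, Dkk3, Wnt7b, Frzb and Fzd2 passed too. The test above took all libraries as unpaired. The labels do not say that such libraries share an animal, although the column codes within each such pair are consecutive. The calls with the block are given with the alternatives below.

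Sfrp4 (chr13:19623104-19632994, plus strand, on GRCm38), a secreted inhibitor known from fibroblasts and bone, stood at 3.73, 48.9 and 1.15 CPM in OFC renouncers and at 0.762, 2.85 and 10.97 in OFC perseverers. In the mPFC it stood at 1.02, 1.51 and 1.10 CPM in renouncers and at 0.271, 0.0732 and 0.685 in perseverers. The highest OFC library was thus OFC renouncer replicate 2, with 693 counts, followed by OFC perseverer replicate 3 with 156, and the lowest 2 OFC libraries lay within the mPFC range. The log2 fold change was 3.84 ± 0.87 (SE) and the adjusted p 0.0364 in edgeR. The call ended when OFC renouncer replicate 2 was left out (2.47, adjusted p = 0.182), when OFC perseverer replicate 3 was (3.35, 0.0988), when both were (1.61, 0.392), when any 1 mPFC library was (adjusted p = 0.060 to 0.087), in limma (2.47, 0.395) and without the low-count filter (0.125).

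A list of 14 meningeal fibroblast markers had counts for all 14 genes in both regions, with a summed level of 75.4 to 318 CPM in OFC and 95.6 to 160 in mPFC dissections. The highest sum, 318 CPM, was in OFC renouncer replicate 2, the library with the most Sfrp4. In OFC perseverer replicate 3 the sum was 109 CPM, inside the mPFC range, and the summed choroid plexus markers were the highest of the 12 dissections, at 11.8 CPM. Of those 11.8 CPM the gene Ttr made 9.36. The choroid plexus sums were 9.59 and 9.48 CPM in mPFC perseverer replicates 2 and 3, where Sfrp4 stood at 0.0732 and 0.685 CPM. The part of these cells in the Sfrp4 difference was not tested.

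**Figure D2:**
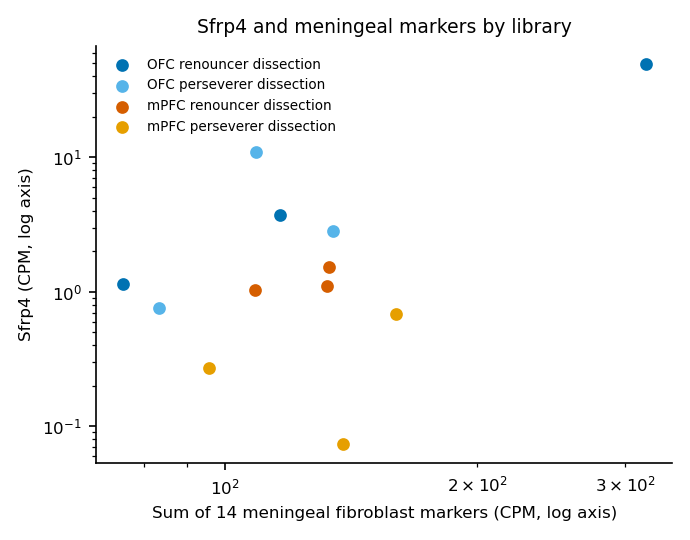
Sfrp4 against the summed level of 14 meningeal fibroblast markers in each of the 12 dissections, both in scaled CPM on log axes and coloured by group. OFC renouncer replicate 2 lies apart at the upper right (48.9 and 318 CPM), whereas OFC perseverer replicate 3, at 10.97 CPM of Sfrp4, has a marker sum of 109.

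The other members nearest to the threshold between regions differed by less than 2-fold. Wnt7b was at 53.6 to 81.1 CPM in OFC (69.9 ± 12.3, SD, n = 6) and at 75.2 to 110 in mPFC (95.6 ± 12.96), a log2 fold change of −0.46 ± 0.12 (SE; adjusted p = 0.061 in edgeR). Wnt7b passed in DESeq2 (adjusted p = 0.00854) and in limma (0.0134), and in edgeR without mPFC perseverer replicate 3 (0.0298). Dkk3 was at 519 to 803 CPM in OFC and 672 to 921 in mPFC, with 650 ± 125.2 and 843 ± 105 as means (log2 fold change −0.38 ± 0.12, adjusted p = 0.144 in edgeR and 0.0215 in limma). Both genes, the leading ligand and the leading inhibitor, therefore had their higher mean in the mPFC, with ranges that overlapped. Among the 6 pairs of OFC and mPFC libraries with the same phenotype and replicate number, each gene was higher in the OFC in 0. The labels do not say that such pairs share an animal.

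Fzd2 was at 8.99 to 13.1 CPM in OFC and 6.29 to 10.7 in mPFC (log2 fold change 0.58 ± 0.16, adjusted p = 0.0924 in edgeR and 0.0225 in DESeq2). Frzb was at 20.2 to 34.5 CPM in OFC, and in mPFC at 12.3 to 17.9 in 5 libraries and 30.4 in perseverer replicate 2, without which it passed in edgeR (log2 fold change 0.59 ± 0.19 and adjusted p = 0.151 with all libraries, 0.0326 without that one). Wnt4 was at 7.88 to 11.9 CPM in OFC, and in mPFC at 13 to 22.2 in 5 libraries and 7.13 in renouncer replicate 3, without which it passed (log2 fold change −0.71 ± 0.23, adjusted p = 0.144, and 0.0227 without that one). For Frzb and Wnt4, then, 1 mPFC library each lay with the OFC libraries. Lrp6 (−0.35 ± 0.13, adjusted p = 0.222), Wnt9a (0.46 ± 0.21, 0.326), Wnt6 (−0.75 ± 0.41, 0.432) and Fzd8 (−0.56 ± 0.31, 0.454) did not pass in edgeR. Oligodendrocyte markers, 11 genes, summed to 5933 to 19580 CPM in OFC and 2161 to 8340 in mPFC dissections, and astrocyte markers, 12 genes, to 7466 to 10320 and 6058 to 8383; their part in these differences was not tested.

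**Figure D3:**
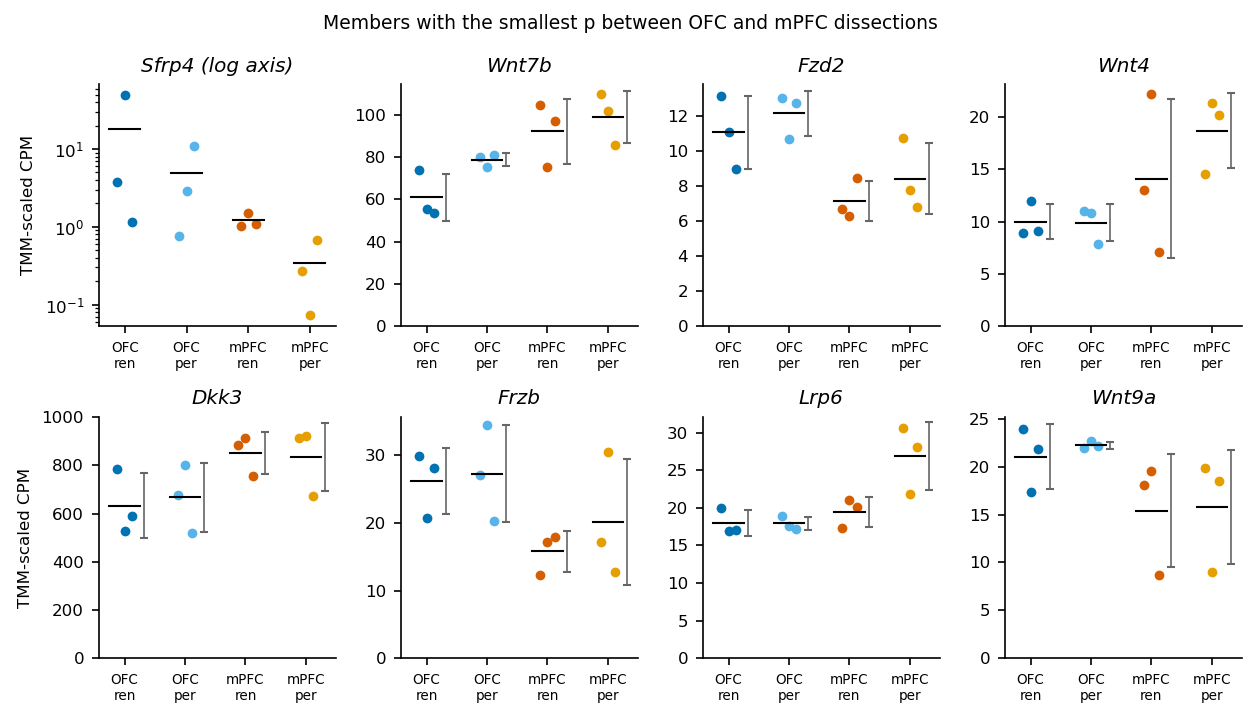
Scaled CPM of 8 members in the 4 dissection groups (3 libraries each; ren, renouncer; per, perseverer), with the group mean as a black line and, beside it, the SD as a grey bar except for Sfrp4, which is on a log axis. Wnt7b and Dkk3 lie higher in most mPFC libraries, Fzd2, Frzb and Wnt9a in most OFC libraries, and Sfrp4 spans 0.0732 to 48.9.

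Other genes of the pathway were examined in 5 lists. Of 12 tested secreted modulators, Rspo1 was higher in OFC (log2 fold change 1.53 ± 0.27, adjusted p = 0.0085 in edgeR) and the other 11 did not pass. Rspo1, an R-spondin that strengthens Wnt signals at the receptor, was at 8.65 to 16.7 CPM in OFC and at 2.98 to 7.88 in mPFC dissections; without OFC renouncer replicate 2 and OFC perseverer replicate 3 together it did not pass (1.27, adjusted p = 0.0837). Of 17 other receptors and receptor turnover genes, Gpc3, a glypican that binds Wnts at the cell surface, was lower in OFC (−1.31 ± 0.26, adjusted p = 0.0194), a call that ended without OFC renouncer replicate 2, OFC perseverer replicate 1 or 3, mPFC renouncer replicate 2, or mPFC perseverer replicate 1 or 2 (adjusted p = 0.0508 to 0.0726). Of 12 feedback and target genes, Tcfl5 was lower in OFC (−2.22 ± 0.39, adjusted p = 0.0085); it encodes a basic helix-loop-helix protein and is not a known readout of beta-catenin. None of 38 intracellular beta-catenin pathway genes and none of 22 planar polarity and calcium genes passed. The median log2 fold change was −0.05 in the beta-catenin list and 0.00 in the planar polarity and calcium list.

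After oDASS, perseverers and renouncers were compared within each region. No gene passed in the OFC (0 of 14621, 0%) or in the mPFC (0 of 14375, 0%), so none of 29 and of 26 tested members did. At an unadjusted p under 0.05 there were 377 genes (2.58%) and 2 members in the OFC, and 639 genes (4.45%) and 1 member in the mPFC; DESeq2 and limma called 0 genes in both regions. The median log2 fold change of the members was 0.06 in the OFC and 0.08 in the mPFC, and that of all genes 0.00 in both.

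Sfrp1, a Wnt-binding inhibitor, had the smallest p of the members in the OFC. It stood at 23.1, 24.6 and 20.1 CPM in OFC renouncers and at 35.3, 30.5 and 35.6 in perseverers, so every perseverer library was above every renouncer library. The log2 fold change was 0.59 ± 0.17 (SE), with an unadjusted p of 0.00432, the 4th smallest of the 14621 genes, and an adjusted p of 0.951 in edgeR. In the mPFC Sfrp1 stood at 22.7, 29.3 and 22.2 CPM in renouncers and 24.8, 37.0 and 29.4 in perseverers, with overlap (0.31 ± 0.22). Wnt7b was the other member with separate groups in the OFC, at 73.9, 55.2 and 53.6 CPM in renouncers and 80.1, 75.2 and 81.1 in perseverers (0.39 ± 0.16, adjusted p = 0.951 in edgeR). Groups did not overlap in 2 of 29 members, beside 9.19% of all genes.

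In the mPFC the coreceptor gene Lrp6 stood at 17.3, 21.1 and 20.1 CPM in renouncers and at 30.6, 21.9 and 28.1 in perseverers, all above the renouncers (log2 fold change 0.48 ± 0.22, adjusted p = 0.943 in edgeR). In the OFC its values were 19.99, 16.9 and 17.1 CPM in renouncers and 18.9, 17.6 and 17.2 in perseverers (0.01 ± 0.17). Sfrp4 was lower in every mPFC perseverer library than in every renouncer library (−1.72 ± 0.88, adjusted p = 0.943), at the 1 to 19 counts per library behind the CPM values above. In the OFC its difference was −1.89 ± 1.48, and 0.97 without renouncer replicate 2. Wnt5b had the third smallest p in the mPFC, at 5.05, 1.75 and 3.45 CPM in renouncers and 0.882, 2.63 and 1.43 in perseverers (−1.05 ± 0.60, adjusted p = 0.943). Groups did not overlap in 2 of 26 mPFC members, beside 10.9% of all genes.

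With both regions in 1 fit and region as a term, 0 of 15025 genes passed (0%; 1669 at an unadjusted p under 0.05, 11.1%; 109 passed in DESeq2 and 0 in limma, with 0 members in either). Of 29 members, Sfrp1, Sfrp4 and Wnt7b had an unadjusted p under 0.05, and Lrp6 had 0.075 in edgeR. Sfrp1 was 0.46 ± 0.13 higher in perseverers on the log2 scale (unadjusted p = 0.00337, adjusted p = 0.345 in edgeR, a value no gene went below), Wnt7b 0.26 ± 0.12 and Lrp6 0.25 ± 0.13, and Sfrp4 −1.81 ± 0.83. These libraries are the same as in the comparisons within regions, and OFC and mPFC libraries may come from the same mice. The summed markers of cortical excitatory neurons, 9 genes, were 4518 to 5331 CPM in OFC renouncers and 5588 to 6184 in OFC perseverers, and 4053 to 4766 and 5206 to 7185 in the mPFC; their part in these values was not tested. In the test of whether the phenotype difference differed between regions, 0 of 15025 genes passed (0%; 225, or 1.5%, at an unadjusted p under 0.05; 0 in DESeq2 and limma). The members with the smallest p were Lrp6 (difference of log2 fold changes, OFC minus mPFC, −0.46 ± 0.25), Wnt9b (2.49 ± 1.68) and Wnt5b (0.92 ± 0.68), each with an adjusted p of 1 in edgeR. In the 5 pathway lists no gene passed between perseverers and renouncers in the OFC, in the mPFC or in both. Of the 38 intracellular beta-catenin genes, 31 had a positive log2 fold change over both regions, beside 51% of all genes. Their median was 0.19 beside 0.01 for all genes, and 9 (23.7%) had an unadjusted p under 0.05 in edgeR, beside 11.1%. This lean was not particular to that list: 10 of 12 feedback and target genes and 17 of 22 planar polarity and calcium genes were positive. Among secreted modulators 7 of 12 were positive, and among other receptors and turnover genes 6 of 17.

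**Figure D4:**
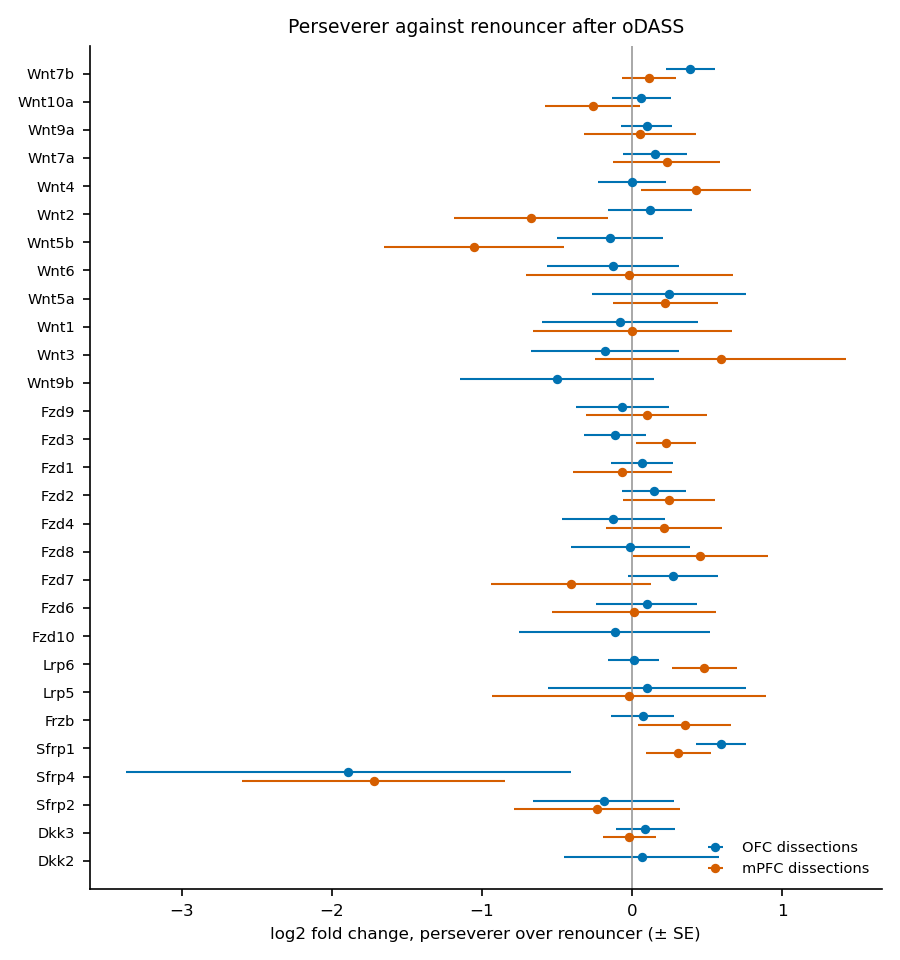
log2 fold change of perseverers over renouncers for each tested member in OFC (29 members) and mPFC (26 members) dissections, with bars of ± 1 SE from edgeR. Sfrp1 lies above 0 in both regions (0.59 and 0.31) and Sfrp4 below 0 in both, with the widest bar in the OFC (1.48), and no member passed the threshold.

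In the 5 imprints taken before oDASS, only 6 of the 40 genes had enough counts to be tested between perseverers and renouncers. No gene passed (0 of 10530, 0%; 181, or 1.72%, at an unadjusted p under 0.05 and none of them members; 0 in DESeq2 and limma). All 6 members had a lower fitted level in the 2 perseverer imprints: Lrp6 (log2 fold change −2.23 ± 1.37), Fzd9 (−1.65 ± 1.37), Fzd3 (−0.89 ± 0.85), Wnt7b (−0.69 ± 0.70), Wnt7a (−0.53 ± 0.90) and Dkk3 (−0.45 ± 0.47), each with an adjusted p of 0.9999 in edgeR. The median log2 fold change of all genes was −0.03, and their share with a lower level in perseverers is not given here. Dkk3 alone had groups that did not overlap, at 314, 211 and 212 CPM in renouncers and 206 and 162 in perseverers, beside 16.3% of all genes. Lrp6 stood at 34.3, 0 and 42.6 CPM in renouncers and 4.10 and 7.83 in perseverers, and Fzd9 at 6.36, 17.4 and 47.5 and at 1.02 and 15.7. Both genes passed the low-count filter only through renouncer imprints, so a lower level in perseverers was favoured in advance for them. In 4 of the 5 libraries 1 count stands for 1 to 3 CPM.

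Imprints before and OFC dissections after oDASS differed in many members, all of those that passed being lower in the imprints. The time and the way of collection coincide, so the 2 cannot be told apart. In 5 imprints against 6 dissections, with phenotype as a term, 5106 of 15229 genes passed (33.5%), 2374 higher (15.6%) and 2732 lower (17.9%) in imprints. Of 30 tested members (of 40), 12 were lower and 0 higher, and the groups did not overlap in 9 of 30, beside 24.2% of all genes. By role, 5 of 13 ligands, 3 of 9 Frizzled genes, 0 of 2 coreceptors, 3 of 4 Sfrp or Frzb genes and 1 of 2 Dkk genes were lower. The median log2 fold change was −1.31 for the members and −0.16 for all genes. Several members passed the low-count filter only through the dissections, where they are high. Among them were Wnt2, Wnt5b and Wnt9b, with 0 counts in all 5 imprints, and Sfrp2, with 1. With few counts in most imprints, the filter favoured members higher in dissections. The split of 12 lower and 0 higher, the counts by role and this median are therefore partly set by the filter. With library totals in place of TMM scaling the median of all genes moved to −2.82 and the split to 357 higher and 10133 lower, with 24 members lower and 0 higher, so the fold changes given here are relative to the bulk of genes outside haemoglobin.

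Wnt2, a ligand of the canonical branch, had 0 counts in all 5 imprints and 4.94 to 9.09 CPM in the 6 OFC dissections (7.05 ± 1.75, SD), where it held 723 counts in all. Imprint renouncer replicate 1 would have held 44.4 Wnt2 counts at the dissection level. Taking 3 counts over the 5 imprints as the floor, Wnt2 was at least 20.2-fold lower in the imprints (adjusted p = 0.000306 in edgeR). Wnt5b likewise had 0 counts in the imprints against 2.19 to 3.93 CPM in the dissections (18.6 counts expected in imprint renouncer replicate 1), at least 8.49-fold lower (adjusted p = 0.00175). Wnt9b had 0 counts against 0.338 to 1.41 CPM and was at least 2.18-fold lower (adjusted p = 0.0381). These limits rest on imprint renouncer replicate 1: over the other 4 imprints they were 5.44-fold for Wnt2 and 2.28-fold for Wnt5b, and the Wnt9b level in dissections (0.759 CPM) was under the floor of 1.30 CPM, which leaves no limit. These 3 ligands were thus not seen in any imprint, whereas Wnt7b and Wnt7a were seen in all 5. At its dissection level Wnt9b would have held 4.78 counts in imprint renouncer replicate 1. Wnt10b, Wnt11 and Wnt8b, which were lower still in the dissections, also had 0 counts in all 5 imprints, as had Wnt3a and Wnt8a.

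Wnt7b stood at 39.4, 78.1 and 95.1 CPM in renouncer and 67.6 and 18.3 in perseverer imprints, of which 2 lay below, 1 above and 2 within the 53.6 to 81.1 of the OFC dissections (log2 fold change −0.22 ± 0.33, adjusted p = 0.640). Wnt7a stood at 15.2, 23.1, 29.5, 11.3 and 20.9 CPM in the imprints in the same order and at 11.01 to 19.1 in the dissections (0.23 ± 0.36, adjusted p = 0.665). Wnt10a was lower, at 4.29, 0 and 14.8 CPM in renouncer and 0 and 2.61 in perseverer imprints against 16.2 to 24.7 in the dissections (−2.32 ± 0.62, adjusted p = 0.00875 in edgeR). Wnt9a stood at 13.5, 2.89, 14.8, 0 and 0 CPM against 17.4 to 24.0 (−1.74 ± 0.60, adjusted p = 0.0345). The ligands therefore did not all shift alike, but differences between members were not tested.

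Dkk3 was the most firmly lower member, at 162 to 314 CPM in the imprints and 519 to 803 in the dissections, without overlap (−1.56 ± 0.23, adjusted p = 6.76e-05 in edgeR). Frzb stood at 8.26, 2.89, 1.64, 0 and 2.61 CPM in the imprints and at 20.2 to 34.5 in the dissections (−2.74 ± 0.54, adjusted p = 0.000937). Sfrp1 stood at 13.03, 0, 8.20, 3.08 and 5.22 CPM against 20.1 to 35.6 (−1.86 ± 0.47, adjusted p = 0.00636). In all 3 inhibitors every imprint lay below every OFC dissection. Sfrp2 had 1 count in the 5 imprints against 0.938 to 3.23 CPM in the dissections (−3.82 ± 1.25, adjusted p = 0.0271).

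Among the receptors, Fzd1 stood at 6.20, 2.89, 4.92, 0 and 0 CPM in the imprints and at 11.3 to 16.4 in the dissections (−2.06 ± 0.58, adjusted p = 0.0115 in edgeR), without overlap. Fzd6 had 1 count in imprint renouncer replicate 1 and 3 in perseverer replicate 1, against 2.57 to 6.21 CPM in the dissections, so that perseverer replicate 1, at 3.08 CPM, lay within their range (−3.04 ± 0.84, adjusted p = 0.0106). Fzd3 stood at 40.99, 26.02, 52.5, 7.17 and 39.1 CPM against 47.3 to 81.8, with overlap (−1.05 ± 0.36, adjusted p = 0.0353). Fzd2 (0.18 ± 0.54, adjusted p = 0.829), Fzd9 (0.11 ± 0.63, 0.916) and Lrp6 (−0.09 ± 0.57, 0.920) did not pass, with SEs as large as the differences or larger.

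The calls of Dkk3, Wnt2, Frzb, Wnt5b, Sfrp1, Wnt10a and Fzd1 were kept under every alternative that was run, including the fits without imprint renouncer replicate 1 and with it as the only imprint, where the lone imprint is assumed to vary like the dissections. With it alone, Dkk3 was −0.97 and Frzb −1.62 on the log2 scale, and 2 members, Fzd2 and Lrp6, passed as higher. Fzd6, Sfrp2, Fzd3 and Wnt9b were lost without imprint renouncer replicate 1 (edgeR's adjusted p = 0.0792, 0.222, 0.0544 and 0.235). Wnt9a was lost in 8 of the 11 leave-outs of 1 library, all but imprint renouncer replicates 1 and 3 and OFC renouncer replicate 2 (adjusted p = 0.0518 to 0.0695) and with imprint renouncer replicate 1 as the only imprint (−0.60, 0.105), and Fzd3 in 7 of 11, all but imprint renouncer replicate 3, imprint perseverer replicate 2, OFC renouncer replicate 2 and OFC perseverer replicate 3 (0.0544 to 0.0772), in limma (0.117), with RLE scaling (0.0668) and with imprint renouncer replicate 1 as the only imprint (0.111). Wnt9b was lost in 5 of 11 leave-outs (imprint renouncer replicate 1, both imprint perseverers, and OFC renouncer replicates 1 and 2) in DESeq2 (0.306), with all 17 libraries in 1 fit (0.170) and with imprint renouncer replicate 1 as the only imprint (0.0832), and turned to 0.21 in limma, and Sfrp2 in limma (0.465).

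**Figure D5:**
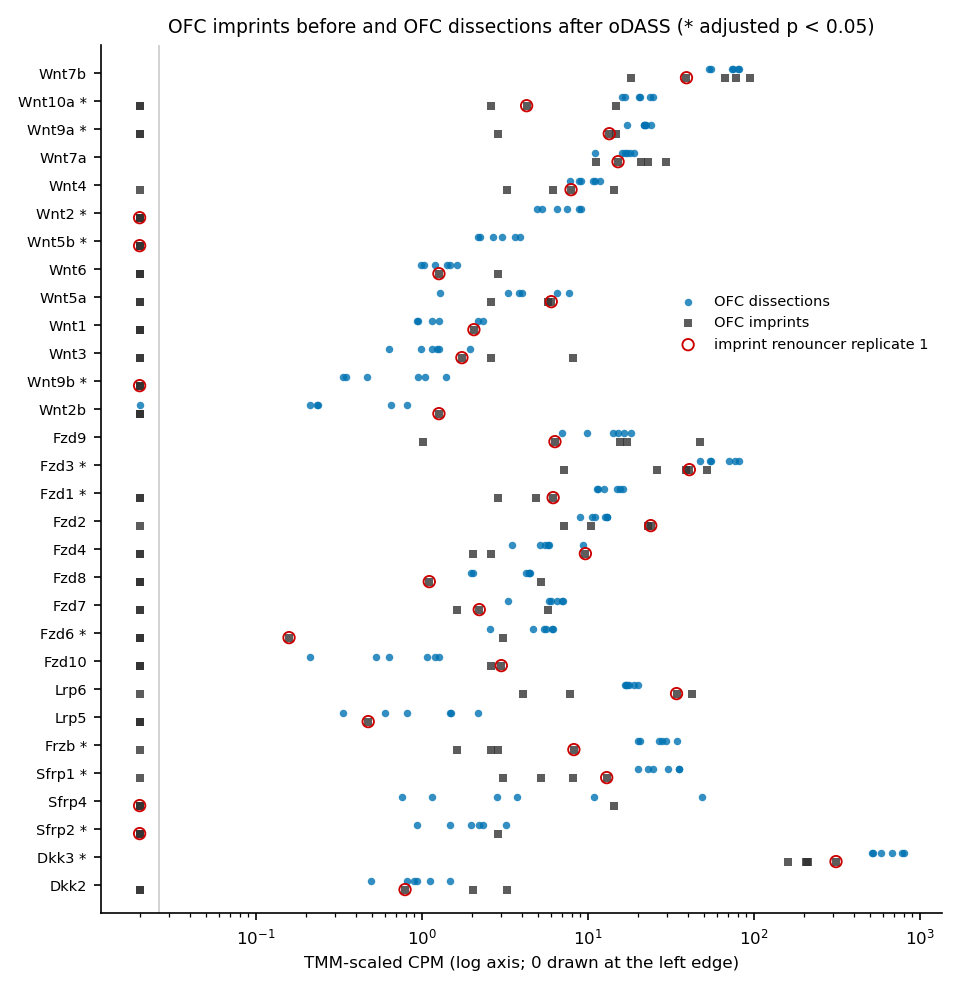
Scaled CPM of the 30 tested members in 5 OFC imprints (squares) and 6 OFC dissections (circles) on a log axis, with zeros at the left edge, a ring around imprint renouncer replicate 1 and an asterisk for an adjusted p under 0.05. Dkk3, Frzb, Sfrp1, Wnt10a and Fzd1 lie lower in all imprints, Wnt2, Wnt5b and Wnt9b are at 0 in all 5, and for Wnt7b and Wnt7a imprints lie both inside and outside the range of the dissections.

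Marker sums of several cell types did not overlap between imprints and OFC dissections. Lower in imprints were those of interneurons (10 genes; 525 to 971 CPM against 1467 to 2234), deep-layer neurons (14 genes; 162 to 330 against 411 to 524), upper-layer neurons (10 genes; 608 to 859 against 963 to 1468) and striatal projection neurons (10 genes; 57.8 to 256 against 309 to 387). Higher were those of microglia (11 genes; 1415 to 2963 against 956 to 1297) and oligodendrocyte precursors (8 genes; 422 to 660 against 285 to 375). Markers of migrating neuroblasts, 11 genes, summed to 286 CPM in imprint renouncer replicate 1, inside the range of OFC dissections (233 to 363), and to 2959 to 12270 in the other 4 imprints. Igfbpl1 and Th of this list had 0 counts in all imprints, whereas all 11 genes had counts in the OFC dissections. The order of the imprints by this sum was also their order by the summed haemoglobin level. Choroid plexus markers, 10 genes, summed to 8.20 to 52.2 CPM in imprints and 1.47 to 11.8 in OFC dissections. Of these genes Folr1, Kcne2, Otx2, Tmem72 and Ttr, the last being the defining gene of that tissue, were at 0 in all imprints. The perseverer imprints, which gave both ends of the imprint range, had counts for 1 of the 10 genes. In OFC dissections all 10 had counts. The part of these cells, and of the blood whose haemoglobin counts are given above, in the members' differences was not tested.

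Of the pathway lists in the same fit, 1 secreted modulator of 13 was higher and 2 lower in imprints, 0 and 3 of 16 other receptors and turnover genes, 5 and 4 of 38 intracellular beta-catenin genes, 2 and 0 of 12 feedback and target genes, and 6 and 5 of 22 planar polarity and calcium genes, beside 15.6% higher and 17.9% lower among all genes. The beta-catenin and secreted modulator counts were below both of these shares, and the planar polarity and calcium counts above both. These gaps amount to few genes, and differences between lists were not tested. Tcf7 (log2 fold change 4.83 ± 0.55) and Lef1 (3.09 ± 0.36), which encode partners of beta-catenin on DNA and are also made by lymphocytes, were higher, and Lef1 stood at 18.3 to 53.3 CPM in imprints and 2.90 to 6.12 in OFC dissections. The lymphocyte genes Cd79a (36.7 to 680 CPM in imprints, 0 to 0.270 in OFC dissections) and Cd3e (8.90 to 90.2, and 0 to 0.212) were also higher in every imprint, and their part in these values was not tested. Axin2, a feedback target of beta-catenin, was higher (1.31 ± 0.41, adjusted p = 0.0216), as was Myc (2.17 ± 0.64, 0.0156). With library totals as scaling Axin2 turned to −1.57 and Myc to −1.52, neither past the threshold, and with imprint renouncer replicate 1 as the only imprint they were 1.02 (adjusted p = 0.0502) and 0.59 (0.402). Draxin, an axon guidance protein that also inhibits Wnt signals, was higher (5.85 ± 0.63), and Cthrc1 was lower (−3.02 ± 0.63). Wif1, a Wnt-binding inhibitor, had 0 counts in all imprints and 0.635 to 2.08 CPM in OFC dissections. Lower genes also included the receptor kinase gene Ptk7 (−3.05 ± 0.84), Tmem198 (−1.501 ± 0.26), the R-spondin receptor gene Lgr5 (−2.51 ± 0.86), Apc2 (−1.41 ± 0.30), Fbxw11 (−0.85 ± 0.19) and the polarity gene Prickle2 (−1.59 ± 0.24), whereas Vangl1 (5.37 ± 0.64), Nfatc3 (3.02 ± 0.40) and Nfatc1 (2.74 ± 0.36) were higher. All of these passed in edgeR with all libraries. Without imprint renouncer replicate 1, Wif1 (adjusted p = 0.0794), Ptk7 (0.0618) and Lgr5 (0.0619) did not pass. In limma these 3 did not pass either (0.382, 0.169 and 0.202). Lgr5 was lost in 5 of 11 leave-outs, with all 17 libraries in 1 fit (0.139) and with imprint renouncer replicate 1 as the only imprint (0.148), Axin2 in 3 (without imprint perseverer replicate 2, OFC renouncer replicate 3 or OFC perseverer replicate 1) and Myc without OFC renouncer replicate 3 (0.0531). With library totals Tcf7 (1.46), Lef1 (0.42) and Vangl1 (1.27) did not pass, and Nfatc3 and Nfatc1 turned to −0.16 and −0.35.

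In the test of whether the phenotype difference in the dissected OFC differed from that in the imprints, 0 of 15229 genes passed (0%; 1336, or 8.77%, at an unadjusted p under 0.05; 73 in DESeq2 and 0 in limma, with 0 members in either). Of 30 members, 6 had an unadjusted p under 0.05. The 3 members with the smallest p were Wnt9a, Fzd1 and Fzd7 (adjusted p = 0.387, 0.460 and 0.540 in edgeR). All 3 had 0 counts in both perseverer imprints, and 85, 1 and 9 (Wnt9a), 39, 1 and 3 (Fzd1) and 14, 2 and 1 counts (Fzd7) in the renouncer imprints, so no fold is given. In the dissected OFC, Fzd7 was at 3.31 to 7.13 CPM in renouncers and 5.98 to 7.03 in perseverers.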

How the data were processed

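Bulk RNA of 17 libraries was extracted with a Qiagen micro elute kit and made into libraries with SMART-Seq v4 and Nextera kits, per the labels' protocols; these do not keep the strand. The authors deposited 3 tables of unnormalised read counts per gene, with gene lengths. The submitters' processing notes name mm10 and FastQC 0.11.8; for aligner, counter and annotation, nothing was given in the labels or files used here. Totals were 8960549 to 20945108 counts per library. From these counts, edgeR 4.0.16 (R 4.3.3; filterByExpr with a minimum count of 10, TMM scaling, robust quasi-likelihood fit, two-sided test, Benjamini-Hochberg adjustment over all genes tested, threshold 0.05) gave log2 fold changes, whose SE is the size of the log2 fold change over the root of the F statistic. CPM uses TMM-scaled totals. DESeq2 1.42.0, limma 3.58.1 with voom and quality weights, other scalings and filters, all 17 libraries in 1 fit, a replicate block and the omission of each library were alternatives; 3 more omissions were chosen after seeing the data. The code was tested on simulated data. No replicate pair differed by so little as to be 1 library deposited again. Named members are those past the threshold in any comparison, the 10 with the smallest p between regions, the 3 with the smallest p in each other comparison, and those with the highest level. The members and lists were chosen with earlier results of these data known.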

Additional observations from a re-analysis of the deposited data

How the results depend on the processing

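Between OFC and mPFC the 264 genes and 1 member that passed in edgeR became 685 genes and 3 members (Fzd2, Sfrp4, Wnt7b) in DESeq2, 822 and 3 (Dkk3, Frzb, Wnt7b) in limma, and 73 and 0 without OFC renouncer replicate 2 and OFC perseverer replicate 3; no low-count filter left 0 members. Leaving out 1 library each gave 120 to 448 genes and 0 to 1 members. For imprints against OFC dissections, library totals gave 10490 genes and 24 members, and leaving out 1 library 4138 to 5488 genes and 8 to 12 members. Counts of 0 became 63 genes for phenotype in imprints with all 17 libraries in 1 fit, 109 for phenotype over both regions in DESeq2, and 73 in DESeq2, 6 with all 17 libraries and 0 to 4 in leave-outs for stage by phenotype; in the other comparisons of phenotype leave-outs gave 0 to 0. Directions turned for Lrp6 between phenotypes in the OFC (−0.0145 with library totals, −0.0042 with all 17 libraries, −0.0374 to 0.0847 in leave-outs), Sfrp4 there (0.97 without OFC renouncer replicate 2; −3.31 to 0.97), Wnt7b in the mPFC (−0.0213 without mPFC renouncer replicate 2, the other leave-outs up to 0.2153) and Sfrp4 in region by phenotype (leave-outs −1.64 to 2.77). In imprints against dissections they turned for Wnt9b (0.21 in limma) and, with library totals, Myc (−1.52), Axin2 (−1.57), Nfatc3 (−0.16) and Nfatc1 (−0.35); the cause was not tested. In 4 of the 5 imprints all members together hold at most 329 counts.

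A block of libraries with the same phenotype and replicate number gave 1130 genes and 5 members between OFC and mPFC. These were Sfrp4, and with adjusted p = 0.00762 Dkk3, 0.00908 Wnt7b, 0.0136 Frzb and 0.0492 Fzd2 in edgeR. The same block turned Sfrp4 in region by phenotype to 1.07. With the replicate number alone as a block, Axin2 no longer passed between imprints and dissections (1.28, adjusted p = 0.0596 in edgeR). The labels do not say that same-numbered libraries share an animal: deviations of same-numbered OFC and mPFC libraries correlated at −0.028 to 0.553, over 0.1 in 5 of 6 pairs, and 8 of 12 libraries correlated best with their own number.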

Other observations

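The symbol rule leaves out genes with related names, and Fzd10os, the opposite-strand neighbour of the receptor gene Fzd10, was looked at after its values were seen. It stood at 4.28 to 5.36 CPM in the 6 OFC dissections and at 0.876 to 1.88 in the 6 mPFC dissections, without overlap (log2 fold change 1.74 ± 0.25, SE; adjusted p = 0.00193 in edgeR). Fzd10 itself stood at 0.212 to 1.28 CPM in OFC and 0.120 to 1.12 in mPFC dissections (0.85 ± 0.64, adjusted p = 0.613 in edgeR). Dkkl1, a Dkk-like gene also outside the rule, stood at 16.7 to 26.7 CPM in OFC and 10.97 to 28.1 in mPFC dissections (0.09 ± 0.19, adjusted p = 0.888).

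A few low members are given by their values alone. Wnt16 had 9 counts (9.22 CPM) in imprint perseverer replicate 1, above its highest dissection value of 0.703 CPM, and 1 count each in imprint renouncer replicates 1 and 2. Fzd5, too low to be tested between regions, stood at 0 to 0.425 CPM in OFC and 0.339 to 1.25 in mPFC dissections. Sfrp4, which did not pass between imprints and OFC dissections (adjusted p = 0.123 in edgeR), was seen in 1 imprint alone, renouncer replicate 2, with 5 counts; the summed meningeal fibroblast markers were the highest of the 17 libraries there, at 367 CPM.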
